A study of Mus musculus with 45 samples.

Results

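The 8 genes described here encode amino acid transporters of the cell surface: Slc7a5, Slc3a2, Slc7a1, Slc7a3, Slc1a4, Slc1a5, Slc6a9 and Slc38a2. They were found by gene symbol among 36300 genes in the count tables, and all 8 passed the filter on low counts in every comparison. RNA came from forelimb buds of CD1 mice, an outbred stock, taken on gestation day 13, pooled, and grown in organ culture with limbs of both sexes together, per the labels. Cultures received the vehicle dimethyl sulfoxide, 10 µM bisphenol A or 50 µM bisphenol A, an estrogenic chemical used to make polycarbonate plastics, and were collected after 3, 24 or 48 h. The 9 groups of 5 gave 45 libraries, with 17.54 to 27.12 M counts (M, 1000000) in each. Whether the 5 libraries of each group are separate litters or culture days is not stated, so a p-value here reflects library-to-library spread, part of which may be technical.

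Amino acids cross the cell membrane through carriers with overlapping substrates. The protein of Slc7a5 (LAT1) exchanges large neutral amino acids such as leucine and reaches the surface only bound to a heavy chain, the protein of Slc3a2. Slc7a1 (CAT1) and Slc7a3 (CAT3) take up the cationic amino acids arginine and lysine, Slc1a4 (ASCT1) and Slc1a5 (ASCT2) exchange small neutral amino acids, with glutamine a main substrate of Slc1a5, Slc6a9 (GlyT1) takes up glycine, and Slc38a2 (SNAT2) carries small neutral amino acids inward with sodium. When amino acids run short or proteins misfold, kinases of the integrated stress response raise the translation of the transcription factor ATF4, which is known to bind and activate several transporter genes along with those of amino acid synthesis and tRNA charging. Leucine brought in by LAT1 is also sensed at the lysosome, where it bears on growth through mTORC1.

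In mm10 coordinates deposited with the counts, all 8 are protein-coding genes. Slc7a5 lies at chr8:121881150-121907694 on the minus strand, Slc3a2 at chr19:8706882-8723369 (minus), Slc7a1 at chr5:148327410-148399904 (minus) and Slc7a3 at chrX:101079210-101086020 (minus). Slc1a4 lies at chr11:20302180-20332713 (minus), Slc1a5 at chr7:16781340-16798274 (plus), Slc6a9 at chr4:117834506-117875198 (plus) and Slc38a2 at chr15:96687392-96699730 (minus). RefSeq promoter windows of build GRCm38.p6, from 250 bases before to 50 bases after a gene's start, were at hand for 5 of the 8 (Slc6a9, Slc7a1, Slc1a4, Slc38a2 and Slc3a2, in 8 windows). They were searched on both strands for TGATGNAA, the letters of the element that ATF4 binds together with a C/EBP protein. A match stood in 1 of the 5 genes, Slc1a4, and in 4.51% of 27025 genes with a window (3.97% of 32851 windows). The longer ER stress element (0.119% of windows) matched none of the 5, and CCAAT (37.4% of windows; it forms the start of the ER stress element) matched in Slc1a4 and in 1 of the windows of Slc7a1. Shown 5′ to 3′ on the gene's strand are the windows of Slc1a4, at chr11:20332664-20332963, and of Slc38a2, at chr15:96699679-96699978. They were chosen since Slc1a4 rose with 50 µM bisphenol A at each time and Slc38a2 at none. Slc7a1 also rose at each time, yet its windows held no match to TGATGNAA. Slc3a2 and Slc6a9 rose at some of the times, and their windows held no such match either. The pair shown therefore does not stand for the other genes with a window. Capitals mark the match in Slc1a4, which reads on the opposite strand and begins 4 bases before the start. A match or its absence describes these letters in this window and says nothing of binding. Sequence outside the windows was not searched, so a window without a match does not show that Slc38a2 or another gene lacks the element.
Slc1a4: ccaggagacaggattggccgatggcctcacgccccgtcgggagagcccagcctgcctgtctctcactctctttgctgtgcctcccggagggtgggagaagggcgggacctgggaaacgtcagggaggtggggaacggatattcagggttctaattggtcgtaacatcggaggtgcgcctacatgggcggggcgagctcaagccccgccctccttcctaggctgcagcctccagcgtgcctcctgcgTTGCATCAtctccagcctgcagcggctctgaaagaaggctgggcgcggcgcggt
Slc38a2: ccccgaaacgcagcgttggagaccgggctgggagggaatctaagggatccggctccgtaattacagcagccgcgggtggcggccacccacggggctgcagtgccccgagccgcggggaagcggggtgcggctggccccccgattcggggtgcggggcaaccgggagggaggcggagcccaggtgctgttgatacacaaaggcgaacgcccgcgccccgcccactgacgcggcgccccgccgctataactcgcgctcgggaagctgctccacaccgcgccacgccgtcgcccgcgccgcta

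Some libraries stood apart from their group before any comparison. Over 10686 genes, the root mean square deviation from the group mean (log2) had a median of 0.166 over libraries and reached 0.343 in 10 µM at 3 h, replicate 3, the highest of the 45, with 0.247 next. The main axis of variation within groups took 26.6% of that variance. Slc38a2 followed it closely, with a Pearson's r of -0.91 (n = 45 libraries, a few of which lie far out on the axis), and Slc1a4 had -0.60, while the other 6 members lay between -0.06 and 0.42. Slc38a2 in the library that stood apart was at 197 CPM (counts per 1000000, scaled to library size) against 363 to 465 in the other 4 of its group. Results that rest on that library are given with and without it. A further 3 libraries, all of 10 µM, went against the label that both sexes were cultured together. Xist, the RNA of the inactive X, was at 2.19 CPM in replicate 2 at 48 h against 330.2 to 1994 in the other 44 libraries. The Y-linked Ddx3y was at 0 CPM in replicate 4 at 3 h and at 0.144 CPM in replicate 5 at 24 h, against 18.0 to 119 in the other 43. With 10 µM against vehicle, no member was called with or without them.

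The labelled tissue, limb bud, held transcripts of several cell types. Of the markers listed for each type, none was at 0 in all 5 libraries of any group. The summed level of 5 chondrocyte markers was 3667 ± 314 CPM in vehicle at 3 h and 13209 ± 1806 CPM at 48 h. With 50 µM, 6 of 7 muscle markers fell at 24 h and 6 of 7 at 48 h, when their summed level was 1481 to 2398 CPM against 3353 to 5221 in vehicle. Of the macrophage markers 3 of 7 and 4 of 7 fell, and their summed level at 48 h was 104 to 192 CPM against 191 to 267. Of 5 chondrocyte markers 1 was called higher at 48 h, Sox9 (log2 0.23 ± 0.06, adjusted p = 0.024), and their summed level was 14852 to 19203 CPM with 50 µM against 11235 to 15730. None of the other markers was called with 50 µM at 24 or 48 h. At 3 h, 0 of the 39 markers of the 6 types passed edgeR's quasi-likelihood test with 50 µM (2 at an unadjusted p under 0.05, 0 by DESeq2). The summed muscle markers were 1144 to 1293 CPM against 1030 to 1174 and those of macrophages 43.7 to 54.8 against 41.5 to 59.9. In whole tissue, fewer cells of a type and less RNA per cell cannot be told apart, and the part of these shifts in the results at 24 and 48 h was not tested.

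**Figure D1:**
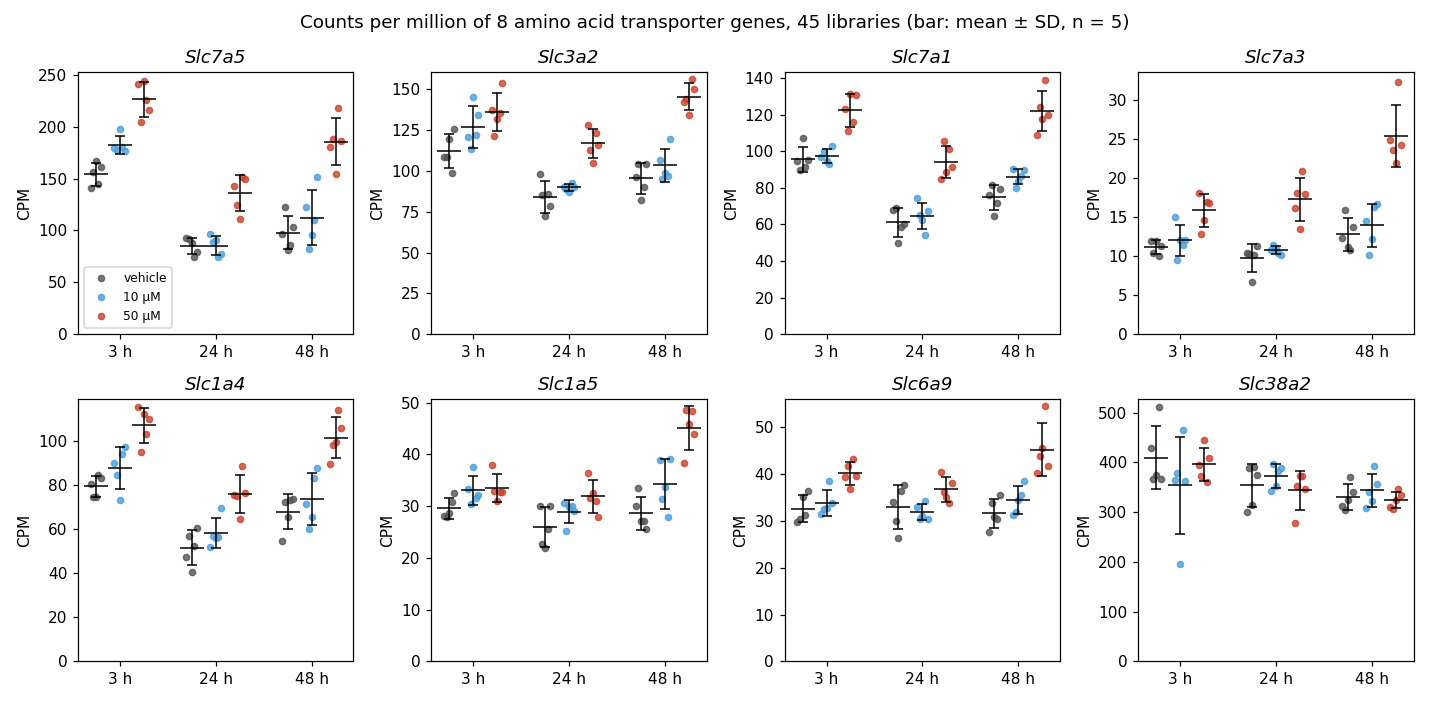
Scaled counts (CPM, y axis from 0) of each transporter gene in the 45 libraries at 3, 24 and 48 h; points are libraries, coloured by dose, and bars are mean ± SD of 5. At 48 h the 50 µM libraries lie above all vehicle libraries for every gene except Slc38a2, which has 1 library at 197 CPM in 10 µM at 3 h.

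With 50 µM bisphenol A, members rose at every time and none fell. Called genes, those with a Benjamini-Hochberg adjusted p under 0.05 in edgeR's quasi-likelihood test over all genes, were 4 of 8 at 3 h (Slc7a5, Slc7a1, Slc7a3, Slc1a4), where 0.889% of genes tested were called higher. At 24 h they were 5 of 8, with Slc3a2 added, against 1.37% of genes. At 48 h they were 7 of 8, all but Slc38a2, against 3.88% of genes. The 8 were chosen with earlier results of these data known, so these shares are set beside the counts and are not a test. No member was called lower, where 0.518%, 2.1% and 5.3% of genes were. The median log2 fold change of the 8 was 0.32, 0.52 and 0.62 at 3, 24 and 48 h, and that of all genes tested was -0.0021, -0.0009 and -0.0049. The libraries of the 2 groups did not overlap, with 50 µM higher, for 5, 5 and 7 members, against 2.46%, 2.29% and 4.43% of genes.

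Without 1 library, the count at 3 h lay between 2 and 4: it was 2 without vehicle replicate 1 or 2 or 50 µM replicate 1 or 5. DESeq2 called 6 of 8 at 3 h, adding Slc3a2 and Slc6a9. At 48 h, where libraries of the same number varied together, a fit with that number as a block called 2598 genes in place of 1536 and the same 7 members.

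Slc7a5, the leucine exchanger, rose at all 3 times. At 3 h it stood at 141, 156, 167, 145 and 161 CPM in vehicle and at 240.8, 205, 244.4, 226 and 216 CPM with 50 µM. All 5 treated libraries exceeded all 5 of vehicle, and the gene was 1.46-fold higher (log2 0.55 ± 0.07 SE, edgeR adjusted p = 0.000322). At 24 h the vehicle libraries held 92.3, 91.4, 87.6, 74.7 and 79.6 CPM and the 50 µM libraries 143, 124, 111, 151 and 150 CPM, 1.59-fold higher (log2 0.67 ± 0.09, adjusted p = 0.000842). Again no library of one group reached the other. At 48 h vehicle held 96.6, 122, 81.2, 86.1 and 103 CPM and 50 µM 181, 189, 154, 218 and 186 CPM, 1.88-fold higher (log2 0.91 ± 0.10, adjusted p = 6.66e-05).

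Slc3a2, the heavy chain that carries LAT1 and related light chains to the surface, rose at 24 and 48 h. At 3 h vehicle held 109, 108, 120, 98.4 and 126 CPM and 50 µM 137, 121, 132, 136 and 154 CPM; the groups overlapped and the difference was not called (log2 0.27 ± 0.08, adjusted p = 0.09999), although DESeq2 gave an adjusted p of 0.0438. At 24 h vehicle held 98.3, 85.1, 72.2, 85.6 and 78.7 CPM and 50 µM 128, 113, 105, 123 and 116 CPM, 1.39-fold higher (log2 0.48 ± 0.08, adjusted p = 0.00518). From 24 h on the treated libraries lay above every vehicle library. At 48 h the values were 96.0, 104, 82.3, 90.4 and 104 CPM in vehicle and 142, 144, 134, 156 and 150 CPM with 50 µM, 1.51-fold higher (log2 0.60 ± 0.07, adjusted p = 6.30e-05).

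The balance between the transcripts of the 2 chains was read per gene length, from the deposited FPKM (fragments per kilobase of gene and per 1000000 reads). The FPKM of Slc7a5 over that of Slc3a2 was 1.31 ± 0.08 in vehicle at 3 h and 1.59 ± 0.16 with 50 µM, 0.973 ± 0.124 and 1.10 ± 0.09 at 24 h, and 0.973 ± 0.084 and 1.21 ± 0.09 at 48 h (mean ± SD, n = 5). These ratios overlapped between the groups at each time. Of the summed FPKM of the 6 light chains that pair with Slc3a2, Slc7a5 took 71.0 ± 1.8% in vehicle and 79.0 ± 1.1% with 50 µM at 3 h. That share was 55.8 ± 3.1% and 66.7 ± 3.7% at 24 h, and 56.6 ± 3.9% and 72.7 ± 3.2% at 48 h, with no overlap between vehicle and 50 µM at any time. With 10 µM it was 76.2 ± 1.9% at 3 h, also without overlap with vehicle, and it overlapped vehicle at 24 and 48 h. The 6 light chains summed over Slc3a2 gave 1.85 ± 0.11 in vehicle and 2.02 ± 0.19 with 50 µM at 3 h. This was 1.74 ± 0.19 and 1.655 ± 0.063 at 24 h, and 1.72 ± 0.08 and 1.67 ± 0.06 at 48 h, with overlap at each time. No test was made of these ratios. They describe RNA of the whole tissue, in which the transcripts may lie in different cells, and protein was not measured. The share also moves with the other light chains, of which Slc7a7 and Slc7a8 were called lower with 50 µM at 48 h (log2 -0.50 and -0.62).

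Slc7a1, the widely used uptake carrier for arginine and lysine, held 94.9, 89.9, 107, 91.2 and 95.3 CPM in vehicle at 3 h and 123, 111, 132, 116 and 131 CPM with 50 µM. The treated libraries were all higher, at 1.27-fold (log2 0.35 ± 0.07, edgeR adjusted p = 0.0203). The call was lost without vehicle replicate 1 or 2 or 50 µM replicate 1 or 5, where the adjusted p rose to at most 0.074. At 24 h the values were 67.9, 69.2, 49.8, 58.5 and 60.1 CPM in vehicle and 85.1, 106, 88.5, 101 and 91.3 CPM with 50 µM, a rise of 1.54-fold (log2 0.63 ± 0.09, adjusted p = 0.00159). No vehicle library reached a treated one at 24 or 48 h. At 48 h vehicle held 76.1, 81.7, 64.8, 71.8 and 79.4 CPM and 50 µM 109, 124, 118, 139 and 120 CPM, 1.62-fold higher (log2 0.70 ± 0.07, adjusted p = 3.48e-05).

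Slc7a3, the second cationic carrier, was the least abundant member and had the largest fold change of the 8 at 24 and 48 h. At 3 h vehicle held 11.9, 10.4, 11.9, 9.95 and 11.3 CPM and 50 µM 18.1, 12.8, 14.6, 16.9 and 16.8 CPM, 1.42-fold higher with no overlap (log2 0.51 ± 0.11, adjusted p = 0.0340). That call held in 2 of 10 fits with a library left out, those without 50 µM replicate 2 or 3, and the adjusted p reached 0.103 without 50 µM replicate 1. At 24 h vehicle held 10.4, 10.3, 6.65, 10.2 and 11.3 CPM and 50 µM 16.2, 18.1, 13.4, 20.9 and 17.9 CPM, 1.77-fold higher (log2 0.82 ± 0.15, adjusted p = 0.00739). Vehicle replicate 3 was low and the groups did not overlap. At 48 h vehicle held 12.3, 15.9, 11.2, 10.8 and 13.8 CPM and 50 µM 24.8, 23.6, 21.9, 32.3 and 24.2 CPM, 1.97-fold higher (log2 0.98 ± 0.13, adjusted p = 0.000187). Slc7a3 lies on the X chromosome, so its values are set beside Xist, which was at 359 to 1147 CPM in vehicle and 441 to 1529 CPM in 50 µM at 48 h. At 3 h Xist was at 513 ± 99.7 CPM in vehicle and 797 ± 378 CPM with 50 µM. The Y-linked Ddx3y was at 70.9 ± 10.2 and 42.8 ± 16.3 CPM at 3 h, and at 70.8 ± 16.5 and 63.2 ± 26.5 CPM at 48 h. The part of the mixture of sexes in the 50 µM values was not tested. With 10 µM, the log2 differences of Slc7a3 from vehicle were 0.10, 0.14 and 0.12 at 3, 24 and 48 h, and 0.12, 0.16 and 0.22 without the libraries that lacked Ddx3y or Xist.

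Slc1a4, which exchanges alanine, serine and cysteine, held 80.4, 74.2, 74.5, 84.5 and 83.0 CPM in vehicle at 3 h and 115, 94.6, 112, 103 and 110 CPM with 50 µM. It was 1.34-fold higher without overlap (log2 0.42 ± 0.07, edgeR adjusted p = 0.00496). At 24 h vehicle held 47.2, 56.8, 40.3, 52.4 and 60.4 CPM and 50 µM 75.3, 74.7, 64.4, 88.4 and 76.4 CPM, 1.47-fold higher (log2 0.56 ± 0.11, adjusted p = 0.00964). Every treated library lay above all vehicle libraries at all 3 times. At 48 h vehicle held 54.6, 72.4, 65.5, 73.2 and 73.5 CPM and 50 µM 89.3, 98.0, 99.5, 114 and 106 CPM, 1.48-fold higher (log2 0.57 ± 0.08, adjusted p = 0.000493).

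Slc1a5, the glutamine exchanger of the same family, was called with 50 µM at 48 h and at neither earlier time. Vehicle libraries ranged from 27.8 to 32.6 CPM at 3 h and from 21.9 to 29.99 CPM at 24 h, and 50 µM libraries from 30.98 to 37.9 and 27.9 to 36.5 CPM; the groups overlapped at both times (log2 0.17 ± 0.08 and 0.29 ± 0.11, adjusted p = 0.400 and 0.179). At 48 h vehicle held 30.1, 33.4, 27.0, 27.1 and 25.5 CPM and 50 µM 38.3, 48.6, 45.9, 48.5 and 43.9 CPM, 1.56-fold higher (log2 0.65 ± 0.09, adjusted p = 0.000259). The 48 h groups did not overlap. The effect at 48 h exceeded that at 3 h by 0.48 ± 0.13 (log2, edgeR interaction test over all 45 libraries, adjusted p = 0.0445), the 1 member called in that test, where 0.348% of genes were called higher. That call held in 6 of 20 fits with a library left out: those without replicate 1 of any of the 4 groups, or replicate 2 of vehicle at 3 or 48 h. The adjusted p reached 0.106.

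Slc6a9, the glycine carrier, had 29.7, 30.5, 35.04, 31.3 and 36.3 CPM in vehicle and 39.2, 41.8, 36.7, 43.2 and 39.6 CPM with 50 µM at 3 h. The treated libraries were all higher, yet the gene was not called (log2 0.29 ± 0.08, edgeR adjusted p = 0.0840; DESeq2 adjusted p = 0.033). At 24 h the groups overlapped, at 26.3 to 37.7 and 33.8 to 40.5 CPM (log2 0.16 ± 0.10, adjusted p = 0.486). At 48 h vehicle held 27.6, 33.7, 30.8, 30.4 and 35.6 CPM and 50 µM 40.2, 43.9, 45.5, 54.5 and 41.8 CPM, which no longer overlapped, and the gene was 1.42-fold higher (log2 0.51 ± 0.09, adjusted p = 0.00231).

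Slc38a2, the sodium-coupled carrier of small neutral amino acids, was not called with bisphenol A at any time. At 48 h its libraries held 312, 305, 324, 372 and 340 CPM in vehicle and 311, 307, 324, 346 and 335 CPM with 50 µM, and every treated library lay within the vehicle range. The log2 difference was -0.04 ± 0.06, with a 95% interval of -0.16 to 0.09 (adjusted p = 0.788). At 3 and 24 h the log2 differences were -0.06 ± 0.10 and -0.04 ± 0.09, with intervals of -0.26 to 0.15 and -0.24 to 0.16. The upper bounds at 24 and 48 h lie below the lower bounds of Slc7a5, Slc3a2, Slc7a1, Slc7a3 and Slc1a4 at the same time.

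**Figure D2:**
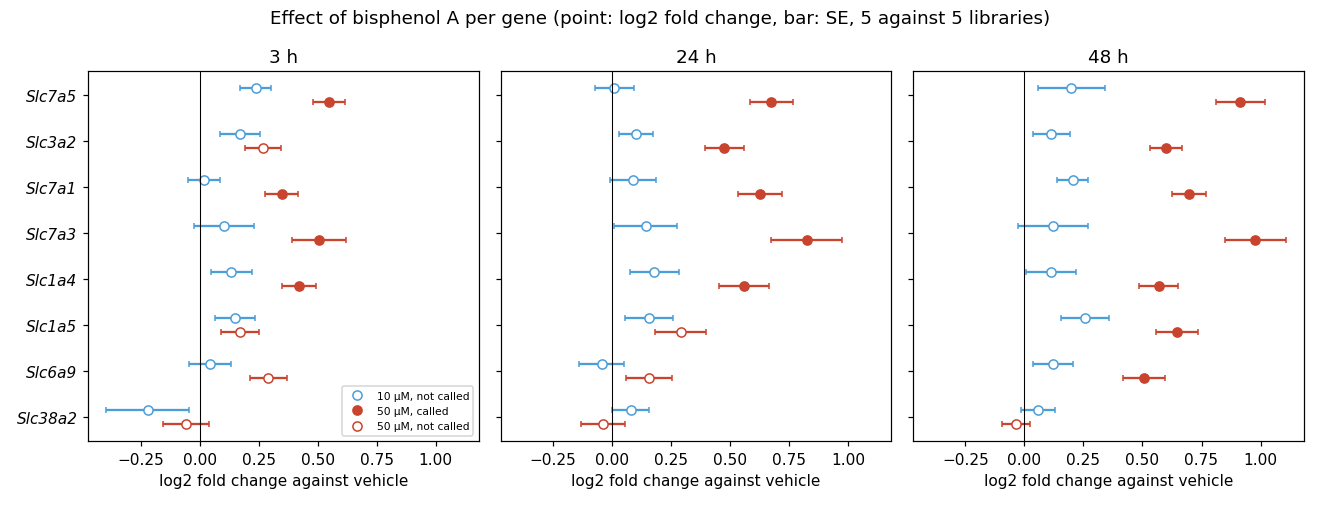
Log2 fold change against vehicle (x axis) of each gene at 3, 24 and 48 h, with standard errors from 5 against 5 libraries; filled points were called. Filled points belong to 50 µM alone and number 4, 5 and 7, and Slc38a2 lies near 0 with 50 µM at each time.

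The lower dose of 10 µM gave no called member. EdgeR called 0 of 8 at 3, 24 and 48 h, where 0.0%, 0.0% and 0.00591% of genes were called, and DESeq2 also called 0 of 8 each time; at an unadjusted p under 0.05 the members were 1, 0 and 2 (5.73%, 4.61% and 5.79% of genes). The member at 3 h was Slc7a5. It stood at 180, 178, 198, 181 and 177 CPM with 10 µM, each library above all 5 of vehicle and below all 5 of 50 µM (log2 against vehicle 0.24 ± 0.07, adjusted p = 0.700). Among all genes, 0.753% had every 10 µM library above vehicle at 3 h. No such share is given for 50 µM above 10 µM, a difference that was not called for Slc7a5 at 3 h. The log2 difference without replicate 3, the library that stood apart, was 0.208. At 48 h the 2 were Slc7a1, at 86.2 ± 4.26 against 74.8 ± 6.70 CPM (mean ± SD, n = 5; log2 0.20 ± 0.07, adjusted p = 0.655), and Slc1a5, at 34.2 ± 4.83 against 28.6 ± 3.16 CPM (log2 0.26 ± 0.10, adjusted p = 0.821). For Slc38a2 at 3 h the log2 difference was -0.22 ± 0.18 with that library and -0.0673 without it. The median log2 difference of the 8 was 0.12, 0.09 and 0.12 at the 3 times.

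Compared directly in the fit of all 45 libraries, 50 µM exceeded 10 µM for 1 member at 3 h, 4 at 24 h and 7 at 48 h, where 0.358%, 0.265% and 0.998% of genes were called higher. At 3 h the member was Slc7a1 (log2 0.33 ± 0.08, adjusted p = 0.0269). It was not called when the 2 groups alone were fitted (adjusted p = 0.124), nor without 10 µM replicate 1, 2, 3 or 4 or 50 µM replicate 1, 3 or 5 (adjusted p up to 0.122). The library without Ddx3y at 3 h is among these, as 10 µM replicate 4. At 24 h they were Slc7a5 (0.67 ± 0.11), Slc3a2 (0.38 ± 0.08), Slc7a1 (0.55 ± 0.08) and Slc7a3 (0.69 ± 0.14), and Slc1a4 had an adjusted p of 0.0545 (0.38 ± 0.10). Without 10 µM replicate 5, the library without Ddx3y, Slc1a4 was called too (log2 0.46, adjusted p = 0.0298). At 48 h all but Slc38a2 were called, from 0.39 ± 0.09 for Slc6a9 and 0.40 ± 0.09 for Slc1a5 to 0.87 ± 0.14 for Slc7a3, whose difference was 0.77 without 10 µM replicate 2, the library without Xist; 7 were called there too.

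The effect of 50 µM was also compared between times. From 3 to 24 h, and from 24 to 48 h, edgeR called 0 of 8 members (0.634% and 0.0% of genes), with 1 and 2 members at an unadjusted p under 0.05 (9.8% and 3.35% of genes); no other tool was run on these differences. The log2 effect at 48 h minus that at 3 h was 0.37 ± 0.15 for Slc7a5, 0.33 ± 0.11 for Slc3a2, 0.35 ± 0.11 for Slc7a1 and 0.47 ± 0.19 for Slc7a3, none called (adjusted p from 0.0982 to 0.285). For Slc1a4 it was 0.15 ± 0.14, with a 95% interval of -0.14 to 0.44.

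In vehicle 4 members fell between 3 and 24 h, Slc7a5, Slc3a2, Slc7a1 and Slc1a4, where 13.8% of all genes tested were called lower. Slc7a5 went from 154 ± 11.0 to 85.1 ± 7.70 CPM, 1.804-fold lower (log2 -0.85 ± 0.07, edgeR adjusted p = 8.32e-07). For Slc7a1, Slc1a4 and Slc3a2 the log2 changes were -0.64 ± 0.09, -0.62 ± 0.09 and -0.41 ± 0.09, and for all 4 the 24 h libraries lay below every 3 h library, against 10.3% of genes. Slc7a3, Slc1a5, Slc6a9 and Slc38a2 were not called, with log2 changes from -0.21 (Slc38a2) to 0.02 (Slc6a9). Of all 17081 genes tested between 3 and 24 h in vehicle, 5131 were called in either direction. Over the same hours muscle and macrophage markers rose (7 of 7 each) and endothelial markers fell (6 of 6). Chondrocyte markers rose (4 of 5), erythroid markers fell (5 of 7), and of 7 epidermal markers 2 rose and 1 fell. Their part in these changes was not tested.

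Between 24 and 48 h in vehicle Slc1a4 rose, from 51.4 ± 7.92 to 67.8 ± 8.08 CPM (log2 0.40 ± 0.11, adjusted p = 0.0311), the 1 member called higher, where 5.44% of genes were. The call held in 3 of 10 fits with a library left out, those without vehicle replicate 2 or 5 at 24 h or replicate 1 at 48 h, and the adjusted p reached 0.0806. Slc7a1 had log2 0.29 ± 0.09 and an adjusted p of 0.0617. Over the whole span from 3 to 48 h, 5 members were lower, against 22.9% of genes: Slc7a5 (log2 -0.65 ± 0.09), Slc7a1 (-0.35 ± 0.07), Slc38a2 (-0.31 ± 0.09), Slc3a2 (-0.23 ± 0.08) and Slc1a4 (-0.22 ± 0.08). The last 2 had adjusted p of 0.0267 and 0.0393. Slc3a2 lost its call without vehicle replicate 3 or 5 at 3 h or replicate 3 or 4 at 48 h (adjusted p up to 0.0791), and Slc1a4 without replicate 1, 4 or 5 at 3 h or replicate 1 or 3 at 48 h (up to 0.112) and in the fit of all 45 libraries (0.0677).

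Levels can be ordered between genes only per length. In vehicle at 3 h the FPKM were 46.0 ± 7.3 for Slc38a2, 41.1 ± 2.8 for Slc7a5, 31.5 ± 2.8 for Slc3a2, 20.03 ± 1.27 for Slc1a4, 8.22 ± 0.58 for Slc7a1, 7.03 ± 0.48 for Slc1a5, 6.28 ± 0.54 for Slc6a9 and 2.91 ± 0.23 for Slc7a3. Slc38a2 and Slc7a5 overlapped between libraries there, as did Slc7a1 with Slc1a5 and Slc1a5 with Slc6a9. Slc38a2 stood first in vehicle at 24 and 48 h too, at 39.7 ± 4.8 and 37.3 ± 3.0 FPKM, above Slc3a2 (23.6 ± 2.7 and 27.0 ± 2.6) with no overlap. With 50 µM at 48 h the order was Slc7a5 (49.8 ± 6.2), Slc3a2 (41.0 ± 2.4) and Slc38a2 (36.5 ± 1.8), in which each overlapped the next. Slc7a3 remained last in all 9 groups, and its range overlapped that of Slc6a9 only with 50 µM at 48 h (6.67 ± 1.06 and 8.74 ± 1.10 FPKM). Summed over the 7 members other than Slc38a2, the level was 409 ± 40.0 CPM in vehicle and 670 ± 57.8 CPM with 50 µM at 48 h.

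**Figure D3:**
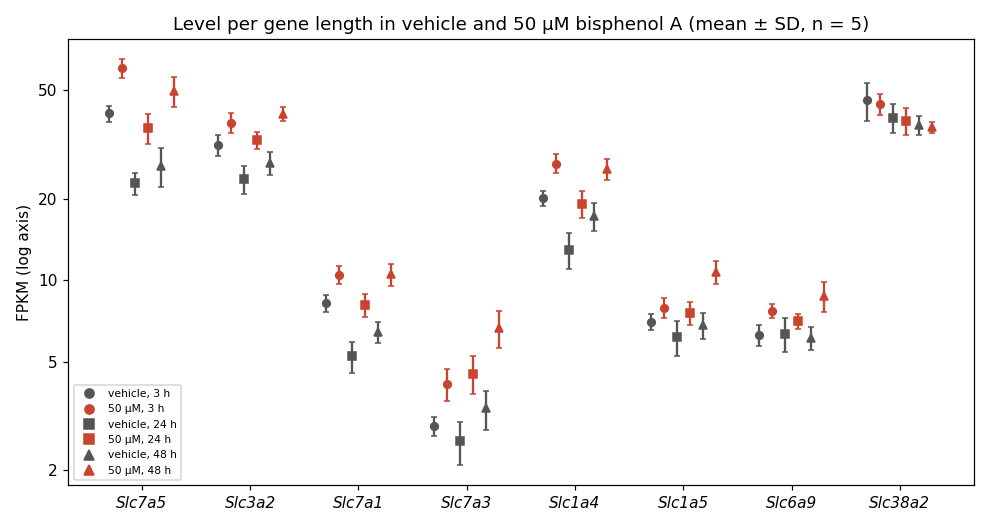
Level per gene length (FPKM, log axis) of each gene in vehicle (grey) and 50 µM bisphenol A (red) at 3, 24 and 48 h, as mean ± SD of 5 libraries. Slc38a2 is highest in vehicle, at 46.0, 39.7 and 37.3 FPKM, and Slc7a5 is highest with 50 µM at 48 h, at 49.8 FPKM.

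Most other amino acid transporters were not called. Of 41 measured, 26 to 27 passed the filter in the comparisons with vehicle. With 50 µM, edgeR called 0 of 26 at 3 h (3 at an unadjusted p under 0.05, 0 by DESeq2) and 0 of 27 at 24 h (7 and 2). Shares of all genes at that unadjusted p are not given for 50 µM against vehicle. Such counts are therefore not read as a result, here or in the lists below. EdgeR called 4 higher and 3 lower of 27 at 48 h, where 3.88% and 5.3% of all genes were. The list's median log2 fold change was then 0.01. Those higher were Slc1a3 (a glutamate carrier, from 36.4 ± 1.6 to 49.2 ± 2.2 CPM, 1.34-fold), Slc16a10 (an aromatic amino acid carrier, 1.33-fold), Slc7a2 (a cationic carrier of the CAT family, 1.22-fold) and Slc36a1 (a proton-coupled carrier of lysosomes, 1.17-fold). Those lower were Slc7a8 and Slc7a7, light chains that also pair with Slc3a2, at log2 -0.62 ± 0.13 and -0.50 ± 0.12, and Slc38a10 at -0.18 ± 0.05. In vehicle both light chains had risen with time, from 4.83 ± 0.90 CPM at 3 h to 10.6 ± 0.91 CPM at 48 h for Slc7a8 and from 6.62 ± 1.48 to 13.8 ± 1.91 CPM for Slc7a7, while Slc7a5 fell. Macrophage and muscle markers rose in the same vehicle groups and fell with 50 µM, and their part in the values of Slc7a7 and Slc7a8 was not tested.

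Genes of the ATF4 pathway were called higher with 50 µM at each time, with 1 call at 3 h. The list of 30 was chosen with earlier results of these data known. With 50 µM at 3, 24 and 48 h it had 1, 13 and 17 genes called higher and 0 called lower. Of all genes tested, 0.889%, 1.37% and 3.88% were called higher. DESeq2 called 6, 14 and 21 of the list higher. Its median log2 fold change was 0.21, 0.35 and 0.41. Ddit3 (CHOP), a stress-induced transcription factor, was the 1 called at 3 h, 1.48-fold higher, when Atf4 itself had log2 0.23 ± 0.09 and an adjusted p of 0.28. With 10 µM no gene of the list was called at any time. At 3 h with 10 µM Ddit3 had log2 0.49 ± 0.11 (edgeR adjusted p = 0.6655), with each library above all of vehicle, as for 0.753% of genes. Shmt2, Phgdh, Sesn2, Mthfd2, Asns and Trib3 were also higher there at an unadjusted p under 0.05, where 5.73% of all genes passed. With 50 µM at 3 h most of the list had an unadjusted edgeR p under 0.05, each of those higher, among them Asns (log2 0.29 ± 0.07). The share of all genes at that p is not given for this comparison, so this is not set against it. In the edgeR interaction test the effect at 48 h exceeded that at 3 h for Cth, Atf5 and Trib3, where 0.348% of genes were called higher. None of the list was called for 24 minus 3 h or 48 minus 24 h. At 24 h Atf4 was 1.30-fold higher and Chac1, a glutathione-degrading enzyme, 2.17-fold. At 48 h the folds were 1.24 for Atf4, 2.23 for Chac1, 2.53 for Trib3, a pseudokinase that binds ATF4, 1.57 for Asns, asparagine synthetase, and 2.76 for Cth, an enzyme of cysteine synthesis. In vehicle, 14 of the 30 fell and 5 rose between 3 and 24 h, with Asns at log2 -0.58 ± 0.08. Of all 17081 genes tested there, 5131 were called in either direction, and 13.8% of those tested were called lower.

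Of 20 cytosolic aminoacyl-tRNA synthetases, which load amino acids onto tRNA, 0, 3 and 9 were called higher with 50 µM at 3, 24 and 48 h and 0 lower (6 at an unadjusted p under 0.05 and 1 by DESeq2 at 3 h). At 24 h they were Aars, Cars and Mars, at 1.24-, 1.24- and 1.22-fold; at 48 h Cars was 1.31-fold higher. Between 3 and 24 h in vehicle, 11 of the 20 fell, where 13.8% of all genes tested were called lower. Of 31 genes that sense amino acids at the lysosome, 0, 1 and 3 rose with 50 µM and 0, 0 and 1 fell. Of all genes 1.37% and 3.88% were called higher at 24 and 48 h and 5.3% lower at 48 h, so nothing is read from counts this small. Sesn2, also in the ATF4 list, a leucine sensor that is itself induced by stress, rose 1.33-fold at 24 h and 1.36-fold at 48 h, and Rragd, a GTPase of the lysosomal surface, fell by 0.52 ± 0.09 on the log2 scale at 48 h. At 3 h 5 of these were at an unadjusted p under 0.05, and DESeq2 called 1.

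**Figure D4:**
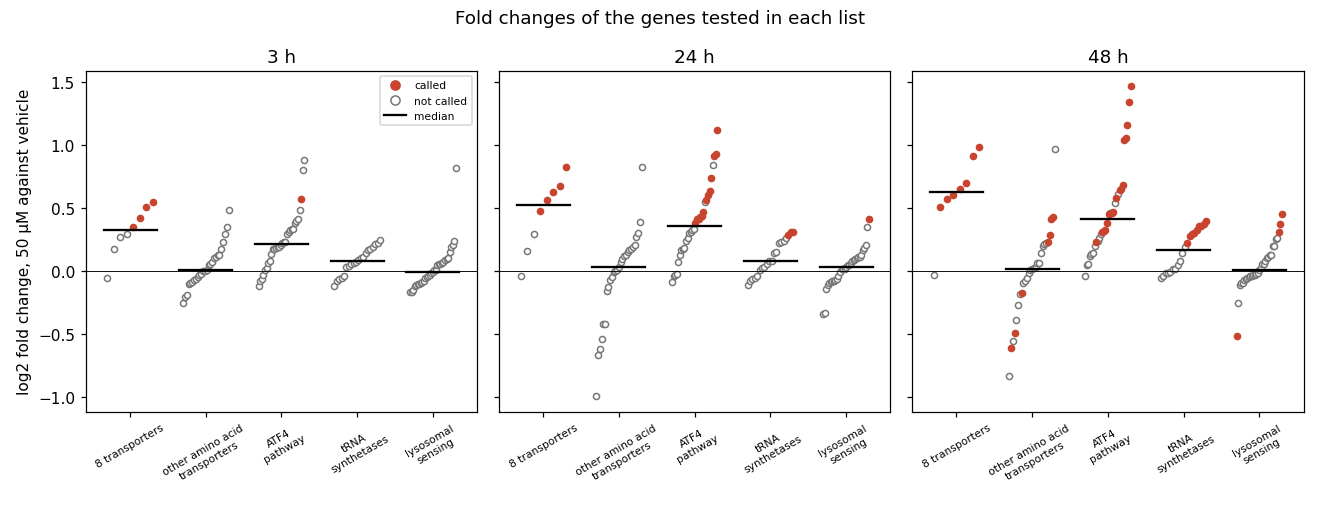
Log2 fold change with 50 µM against vehicle (y axis) of each tested gene in the 8 transporters and in 4 lists, at 3, 24 and 48 h; points are genes, filled when called, and lines are medians. The medians of the 8 transporters (0.32, 0.52 and 0.62) and of the ATF4 pathway list (0.21, 0.35 and 0.41) lie above 0 at each time, while that of the other transporters is 0.00, 0.03 and 0.01.

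Likeness between genes was described by Pearson's r of log2 CPM over the 45 libraries after removal of each time's mean, a measure in which libraries share the dose and their own deviation. Among the 8, the 10 pairs of Slc7a5, Slc3a2, Slc7a1, Slc7a3 and Slc1a4 had r from 0.78 to 0.90. Slc1a5 and Slc6a9 had r from 0.63 to 0.80 with those 5 and 0.70 with each other. Slc38a2 had r from -0.29 to 0.21 with the other 7. After removal of each group's mean, which takes out the dose, r among the first 5 was 0.27 to 0.61.

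**Figure D5:**
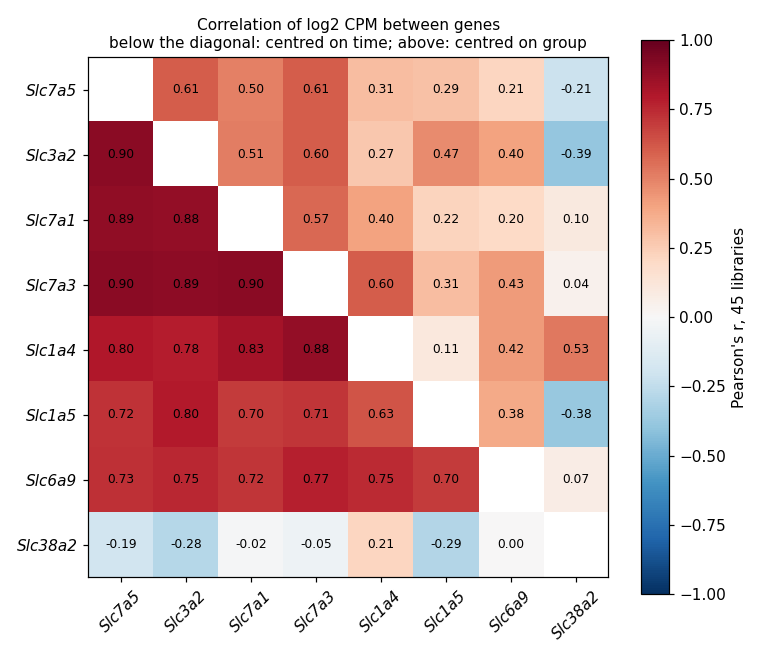
Pearson's r of log2 CPM between the 8 genes over 45 libraries, centred on the mean of each time (below the diagonal) or of each group (above). Below the diagonal the 7 genes other than Slc38a2 have r from 0.63 to 0.90, and Slc38a2 has -0.29 to 0.21 with them.

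Of 10462 other protein-coding genes at a mean of at least 10 CPM, the 3 most like each member were taken. For Slc7a5 they were Cars (0.89), Chac1 (0.88) and Asns (0.88), and for Slc3a2 Chac1 (0.94), Trib3 (0.92) and Atf5 (0.90). For Slc7a1 they were Asns (0.88), Fgfr3 (0.86) and Ctsl (0.86), for Slc7a3 Asns (0.90), Aars (0.89) and Chac1 (0.88), and for Slc1a4 Aars (0.90), Asns (0.90) and Aldh18a1 (0.89). For Slc1a5 they were Atf5 (0.79), Ctsl (0.78) and Ihh (0.78), and for Slc6a9 Chac1 (0.79), Ctsl (0.77) and Mthfd2 (0.76). With the dose removed by group means, these r were 0.52 to 0.77 for the genes named beside Slc7a5, Slc3a2, Slc7a3 and Slc1a4. They were 0.14 for Fgfr3 and 0.15 for Ctsl with Slc7a1 (0.53 for Asns), and 0.36 to 0.59 for the genes beside Slc1a5 and Slc6a9. Slc38a2 was most like Rad21 (0.93), Ccdc88a (0.93) and Slc12a2 (0.92), genes not called with 50 µM at any time, and with group means removed each r was 0.92. Its 95th percentile of r over all genes was 0.80, against 0.45 to 0.53 for the other members. With the group means removed, 41.4% of 10686 genes had an r with Slc38a2 beyond 0.5 in either direction, against 0.328% to 8.67% for the other 7. Across genes, r with Slc38a2 rose with the length of the gene (Spearman's rho 0.57). Genes are not independent replicates here. The rho was -0.55 for Slc3a2, -0.52 for Slc7a5, -0.49 for Slc1a5 and 0.40 for Slc1a4. For Slc7a1, Slc7a3 and Slc6a9 it lay between -0.18 and 0.08. A relation with length was thus not particular to Slc38a2.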

How the data were processed

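Per the labels' protocols, 1 µg of total RNA per library went through poly-T selection of messenger RNA. CASAVA 1.8, STAR 2.5, HTSeq 0.6.1, DESeq2 2 and the build mm10 are named in the submitters' processing notes; how strand was used in counting is not stated there. The authors deposited 9 tables with whole read counts per gene and FPKM per library, per the file headers. Each table lists 30679 to 31290 genes, and 26202 stand in all 9. Libraries were grouped by title. For 50 µM at 3 h another label field gives 24 h. The summed chondrocyte markers of these libraries were 3727 ± 241 CPM, near vehicle at 3 h (3667 ± 314 CPM). At 24 h they were 8791 ± 639 CPM in vehicle and 9420 ± 598 CPM with 50 µM. For 2 libraries of 10 µM at 48 h the numbers in the title and the code are exchanged.

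Each pair comparison was fitted on the deposited counts of its 10 libraries with edgeR 4.0.16 (R 4.3.3): filterByExpr (minimum count 10, minimum total 15), TMM scaling, the quasi-likelihood F test, and Benjamini-Hochberg adjustment at 0.05. Comparisons of 50 with 10 µM and of effects between times came from 1 fit of all 45 libraries. Each standard error was taken as the log2 fold change over the root of F, and intervals use the fit's degrees of freedom. CPM use TMM factors over all 45 libraries, and log2 CPM a prior count of 2. FPKM were used as deposited, for levels between genes only. The procedure was also run on simulated counts with known changes, drawn independently for each gene and library. Those counts lacked the shared variation within groups described above, so they cannot vouch for the test under it. PCR reads are not independent molecules, so counts carry more than counting error.

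The members and all lists were chosen with earlier results of these data known. Named genes were the 8 members, up to 4 called genes of smallest p per list, Atf4, Ddit3, Trib3, Asns and Chac1, and the 3 genes most like each member at a mean of at least 10 CPM; any other gene named was chosen after its values were seen. Libraries of 1 number were taken as paired where every pair's deviations from the group means correlated above 0.1. This held for 50 µM against vehicle at 48 h (5 pairs, r from 0.104 to 0.211), and the labels do not say what a number stands for. All main fits were made without a block, this comparison included. Alternatives were DESeq2 1.42.0, median-of-ratios scaling, no filter, other sets of libraries, a replicate block, an epidermal marker covariate and each library left out.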

Additional observations from a re-analysis of the deposited data

Results flagged for a closer look

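In groups of 5, a library was picked out when its gap to the nearest other exceeded 0.71 of the group's range (Dixon's 95% criterion). Of 72 groups tested, 7 were picked out, and chance flags about 1 in 20 groups. The high libraries were Slc7a5 in 10 µM at 3 h, replicate 3 (198 CPM), Slc7a3 in 50 µM at 48 h, replicate 4 (32.3 CPM), Slc1a4 in 10 µM at 24 h, replicate 5 (69.6 CPM), and Slc1a5 in 50 µM at 3 h, replicate 1 (37.9 CPM). The low libraries were Slc7a3 in vehicle at 24 h, replicate 3 (6.65 CPM), Slc1a5 in 10 µM at 24 h, replicate 2 (25.2 CPM), and Slc38a2 in 50 µM at 24 h, replicate 1 (278 CPM).

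The effect of 50 µM on Slc1a5 differed between 48 and 3 h by 0.477 on the log2 scale (edgeR interaction test over 45 libraries, adjusted p = 0.0445), and this call was lost in 14 of 20 fits with a library left out.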

How the results depend on the processing

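Scaling by median-of-ratios factors kept the direction and the call of all 120 member values; DESeq2 changed 3 of 72, each to a call, and the cause was not tested in any case below. The members called between 24 and 48 h in vehicle were 1, and 2 without the filter, with all 45 libraries, with the replicate block and by DESeq2. For 50 against 10 µM at 3 h they were 1, and 0 with only the groups compared. With 1 library left out the members called ranged from 2 to 4 (50 µM at 3 h), 0 to 2 (48 against 24 h in vehicle), 3 to 5 (48 against 3 h), 0 to 1 (50 against 10 µM at 3 h) and 0 to 1 (effect at 48 minus 3 h).

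Directions turned for values near 0. With the epidermal covariate the log2 difference of Slc7a5 at 10 µM, 24 h, was -0.00175 and that of Slc38a2 at 50 µM, 24 h, 0.00807. For Slc38a2 the effect at 24 minus 3 h was -0.000771 with the replicate block, and that at 48 minus 24 h was -0.00166 with only the groups compared. With a library left out, the log2 ranges that crossed 0 at 10 µM were -0.00695 to 0.0599 (Slc7a1, 3 h), -0.0141 to 0.0831 (Slc6a9, 3 h), -0.118 to 0.00903 (Slc6a9, 24 h) and -0.0386 to 0.0538 (Slc7a5, 24 h). For Slc38a2 at 50 µM they were -0.105 to 0.0444, -0.0845 to 0.0329 and -0.0605 to 0.00988 at 3, 24 and 48 h, and for its effects between times -0.0826 to 0.0805 (24 minus 3 h), -0.0726 to 0.0655 (48 minus 3 h) and -0.06 to 0.0653 (48 minus 24 h). The others were Slc1a4, effect at 48 minus 24 h (-0.0502 to 0.0917), Slc1a5, 50 against 10 µM at 3 h (-0.0303 to 0.0716), and Slc6a9 in vehicle, -0.0495 to 0.0888 (24 against 3 h) and -0.0832 to 0.00994 (48 against 3 h).

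With the replicate block, Slc3a2 at 50 µM, 3 h (adjusted p = 0.0439), Slc7a1 from 24 to 48 h in vehicle (0.012) and Slc1a4 for 50 against 10 µM at 24 h (0.00884) were called, and no other member's call changed. In the 8 pair comparisons other than 50 µM against vehicle at 48 h, the lowest r of same-numbered libraries lay between -0.0773 and 0.0849. Not every pair passed 0.1 there, yet at 24 h 4 of 5 did with 50 µM (r up to 0.219) and 4 of 5 with 10 µM (up to 0.357). At 24 h 4 and 5 of these treated libraries were most like the vehicle library of their own number. Whether libraries of 1 number are paired outside 50 µM at 48 h is thus not settled. The block gave 1180 genes in place of 585 at 50 µM, 24 h, and 183 in place of 122 for the effect at 24 minus 3 h. Counts over all genes moved by over 1.5 times at 50 µM, 3 h (239; DESeq2 513, all libraries 468), 50 µM, 24 h (585; DESeq2 920, all libraries 888) and 50 against 10 µM at 3 h (120; 21 with only the groups compared). At 10 µM edgeR called 0, 0 and 1 gene at 3, 24 and 48 h, DESeq2 14, 17 and 52, and the block 0, 95 and 37. With all libraries the counts at 10 µM were 12, 4 and 20, without the filter 0, 3 and 22, and with the epidermal covariate 6 and 24 at 24 and 48 h; a block numbered by library code gave 58 at 48 h.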
